A study of Mus musculus with 7 samples.

Results

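The genes described here are 33 genes of fatty acid oxidation and of the peroxisome proliferator-activated receptors (PPARs), chosen by name to cover the mitochondrial steps, the peroxisomal steps and the receptors. The count table holds 52459 gene names, and all 33 were found in it. Of the 33, 31 had enough counts to be tested, among 13367 tested genes in all. The receptor gene Ppara and the carnitine palmitoyltransferase gene Cpt1b were not tested.

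The values are bulk RNA sequencing counts from primary mouse articular chondrocytes, the cells of joint cartilage, taken from the femoral head and kept in high-glucose medium with fetal bovine serum. Cells received vehicle (2 libraries, replicates 1 and 2), TGFβ1 at 5 ng/ml (2 libraries, replicates 1 and 3) or BMP2 at 100 ng/ml (3 libraries, replicates 1, 2 and 3) for 24 h, and the labels separate the 3 groups by ligand only. For the mice, strain, genotype, sex and age were not given in the sources used here. Nothing in the labels ties a replicate to an animal or a culture of its own, so the p-values measure only the spread between these libraries, which may be technical.

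Cells burn a long-chain fatty acid in a fixed order of steps. An acyl-CoA synthetase joins it to coenzyme A, the carnitine shuttle carries it into the mitochondrion, and rounds of oxidation, hydration, second oxidation and thiolysis release acetyl-CoA, while electron transfer flavoprotein hands the electrons of the first oxidation to the respiratory chain. Peroxisomes shorten very long and branched chains, and the PPARs are lipid-activated nuclear receptors that bind DNA with a retinoid X receptor and drive many of these genes, PPARα in liver and muscle and PPARγ in fat cells; cartilage has no blood vessels, and its cells are known mainly for glycolysis.

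Total counts per library ran from 6885056 to 7387051 with vehicle, from 16271793 to 18047765 with TGFβ1 and from 6747997 to 10686885 with BMP2. Levels are given as CPM, counts scaled to the size of their library. The 10 chondrocyte markers were all tested and together reached 55266 to 55301 CPM with vehicle, 40502 to 46705 CPM with TGFβ1 and 47573 to 53619 CPM with BMP2, so the defining genes of the labelled cell type were present in all libraries. Most of this sum was Col2a1, and it hides larger moves of single markers. With TGFβ1 the mean of Prg4 was 6151 CPM against 382 CPM with vehicle. All the other markers had lower means with TGFβ1, from Col2a1 (29574 against 35505 CPM) to Sox9 (206 against 542 CPM) and Matn1 (251 against 1991 CPM). The 7 adipocyte markers summed to 4.81 to 8.85 CPM with vehicle, 49.9 to 57.5 CPM with TGFβ1 and 10.0 to 18.2 CPM with BMP2; nearly all of this was Fabp4, the only tested one of them, and Adipoq was at 0 in both vehicle libraries and under 0.1 CPM with TGFβ1. The 7 skeletal muscle markers summed to 8.96 to 19.5 CPM with vehicle, 36.5 to 48.6 CPM with TGFβ1 and 9.59 to 15 CPM with BMP2. Nearly all of this was Tnnt3 (means 12.7, 33.6 and 10.4 CPM in that order) and Mylpf (1.23, 8.66 and 0.927 CPM), the only 2 tested. The mean of Acta1 was 0.246 CPM with vehicle and 0.221 CPM with TGFβ1, and Myh4 was at 0 in all libraries. The leukocyte and endothelial sums stayed under 10 CPM in all libraries, with Cd3e and Cdh5 at 0. The part of these markers in the results below was not tested, and in bulk RNA, fewer cells of a type and less RNA per cell cannot be told apart.

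The TGFβ1 libraries also differed from the others in a way that depends on transcript length. The median log2 fold change of TGFβ1 against vehicle was 2.74 over the 1177 tested genes with a principal transcript of up to 1000 nt, 0.86 over the 1225 genes of 1001 to 1500 nt and -0.44 over the 2501 genes above 5000 nt, and ribosomal protein genes took 6.12% to 6.15% of TGFβ1 counts against 1.01% to 1.06% with vehicle. BMP2 against TGFβ1 showed the same trend with the opposite sign (-2.67 for up to 1000 nt), while the medians of BMP2 against vehicle lay between -0.06 and 0.04 in all length classes. The trend coincides with the treatment, so the ligand and the making of the libraries cannot be told apart as its source. Fold changes of TGFβ1 against vehicle are therefore given as measured and with a length offset, a correction that removes each library's own trend with transcript length and GC content, while CPM levels and sums are as measured. In the plot of fold change by transcript length, Etfb, Eci1 and Ech1 lie near the median of their length class, whereas Pparg, Acsl1, Hadh, Etfa, Acadm, Hadha and Acox3 lie away from it.

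**Figure D1:**
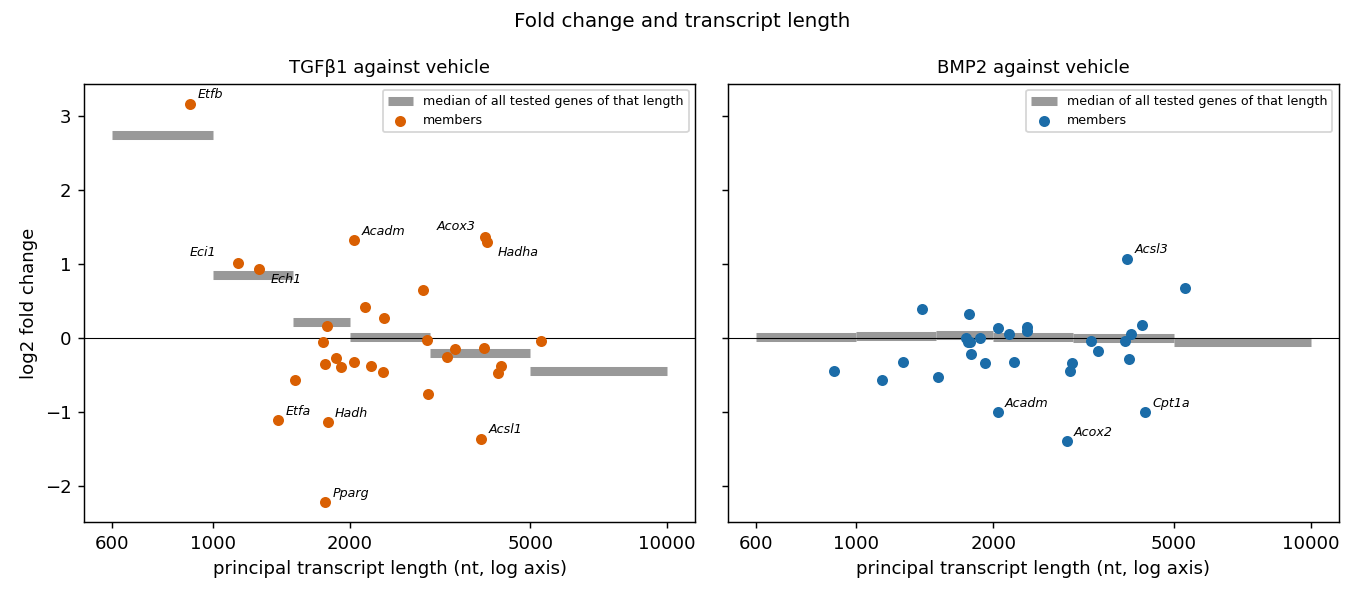
Log2 fold change (vertical axis) against the length of the principal transcript in nt (horizontal log axis) for the tested members, as points, with grey bars for the median of all tested genes of that length class. The short members Etfb, Eci1 and Ech1 sit near the grey bars of 2.74 and 0.86 in the TGFβ1 panel, the bars of the BMP2 panel lie near 0, and Ppargc1a, which had few counts, is not drawn.

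A gene is called risen or fallen below where its adjusted p in edgeR's quasi-likelihood test, adjusted by Benjamini-Hochberg over every gene tested, was under 0.05. With TGFβ1 against vehicle, 7 of the 31 tested members rose and 9 fell, which is 51.6% of them, beside 56.2% of all tested genes that changed (30.4% risen and 25.8% fallen). Without TGFβ1 replicate 1 or TGFβ1 replicate 3, 5 fell. The members' median log2 fold change was -0.26, and that of all tested genes was -0.02. With the length offset 6 rose and 9 fell, beside 25.3% and 23.7% of all genes (49% in all), and 12 members had the same call both ways. The share that moved was thus close to the share of all genes, and what the members show is which of them moved and in which direction.

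BMP2 against vehicle moved fewer genes: 2 tested members rose and 3 fell (16.1%), beside 11.5% of all tested genes (5.33% risen and 6.15% fallen), with a median log2 fold change of -0.05 over the members and 0.00 over all genes. Without BMP2 replicate 3, or without either vehicle library, 1 member rose. The length offset gave the same 5 calls, beside 13.3% of all genes (6.89% risen and 6.37% fallen). BMP2 against TGFβ1, which sets the ligands side by side without vehicle, gave 10 members higher and 7 lower with BMP2 (54.8%), beside 61.4% of all tested genes (28.1% risen and 33.3% fallen). With the offset these counts were 13 and 8, beside 55.8% of all genes (27.6% and 28.2%), and 15 members had the same call both ways. Both comparisons with vehicle use the same 2 vehicle libraries, and all 3 comparisons come from 1 fit, so they are not independent of each other. Library levels that do not overlap between groups were common here: this held for 80.1% of all tested genes between TGFβ1 and vehicle, 44.6% between BMP2 and vehicle and 73.7% between BMP2 and TGFβ1, and the remarks on overlap below describe the libraries and are no test.

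**Figure D2:**
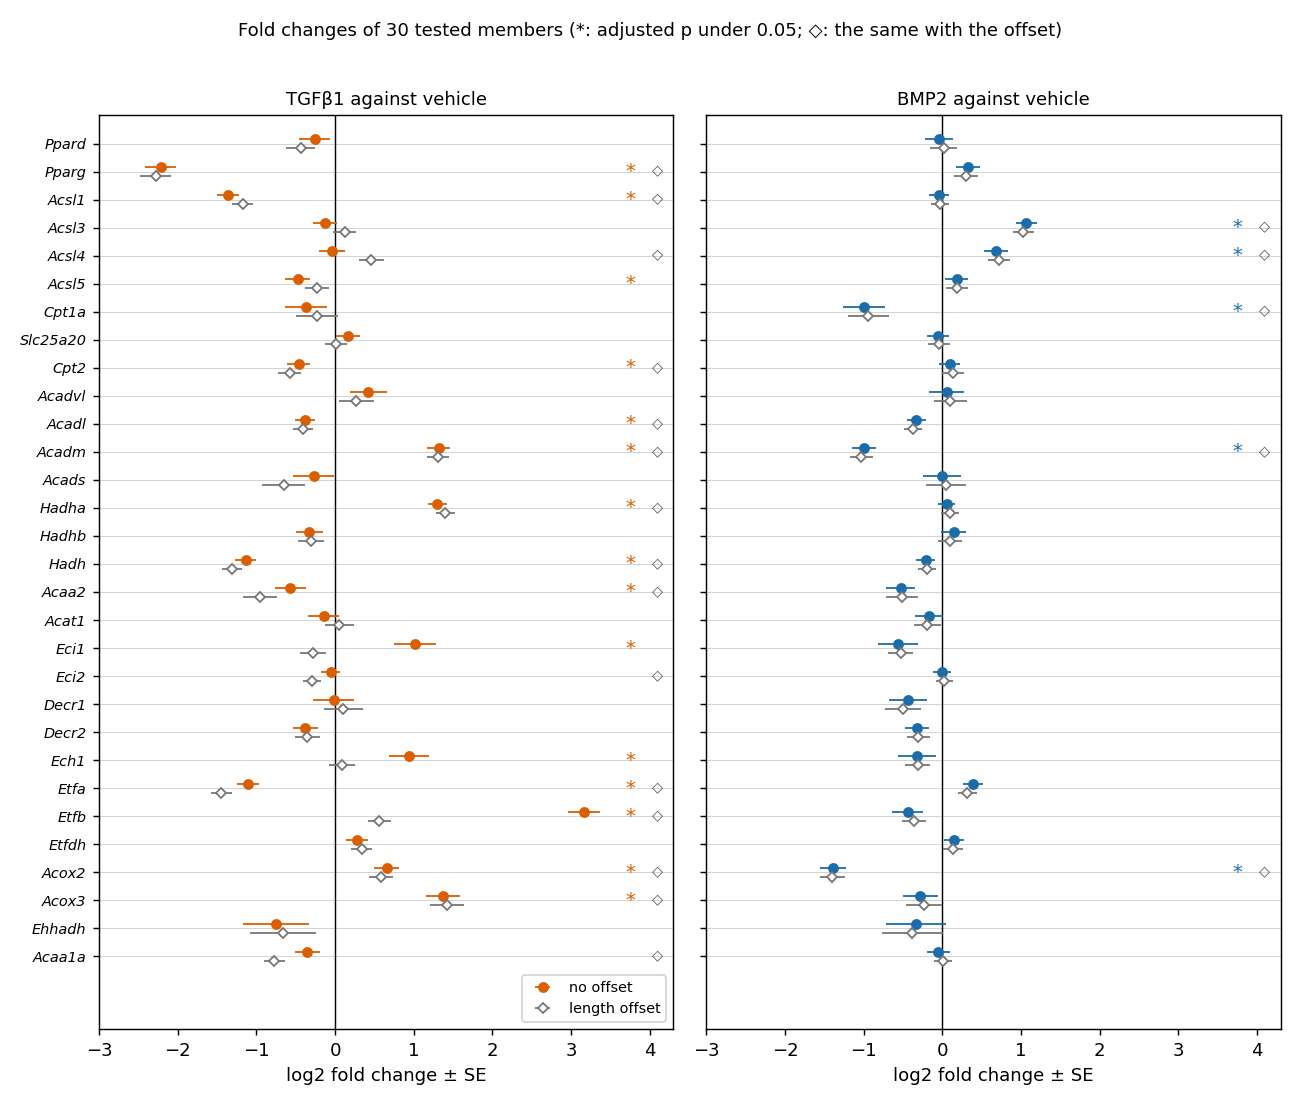
Log2 fold change ± SE (horizontal axis) of 30 tested members, 1 per row in pathway order, as filled circles, and with the length offset as open diamonds; an asterisk or a diamond at the right edge marks an adjusted p under 0.05 without or with the offset. Pparg, Acsl1, Hadh and Etfa lie on the left and Acadm, Hadha and Acox3 on the right of 0 in the TGFβ1 panel under both fits, Etfb and Eci1 move far towards 0 or past it with the offset, and Ppargc1a, which had few counts, is not drawn.

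**Figure D3:**
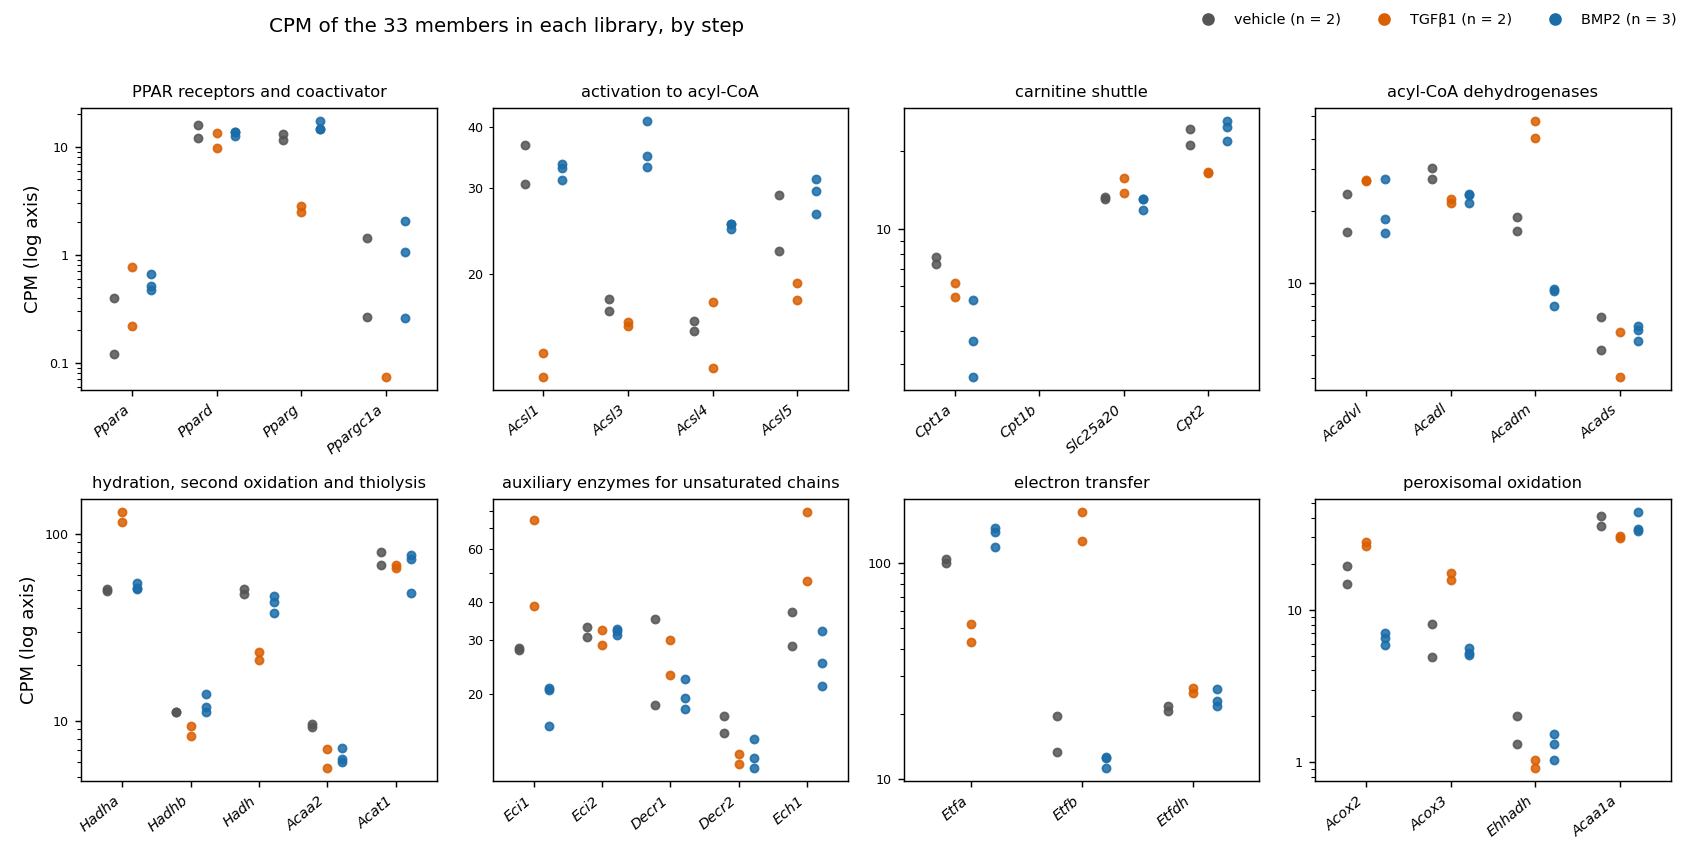
CPM of each member in each of the 7 libraries (vertical log axes, 1 panel per step), with 1 point per library coloured by group. The TGFβ1 points of Pparg, Acsl1, Hadh and Etfa lie below and those of Acadm, Hadha and Etfb above all other libraries; values of 0 (Cpt1b in all libraries, Ppargc1a in TGFβ1 replicate 3) cannot be drawn on a log axis.

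Pparg, the receptor known from fat cells, had the clearest drop of the PPAR genes. It lies on mm10 at chr6:115360951-115490399 on the plus strand. Its level was 11.6 and 13.2 CPM with vehicle, 2.50 and 2.83 CPM with TGFβ1, and 17.4, 14.6 and 14.7 CPM with BMP2. Both TGFβ1 libraries were low, and the 3 groups did not overlap. Its log2 fold change with TGFβ1 was -2.22 ± 0.20 (SE; adjusted p = 5.91e-06), and -2.28 with the offset. Under BMP2 the difference from vehicle, 0.33 ± 0.15, did not pass (adjusted p = 0.216), whereas BMP2 stood 2.55 ± 0.18 above TGFβ1 (adjusted p = 6.77e-07). Fabp4, a fat cell gene known as a PPARγ target, went the other way: its level was 4.68 and 8.13 CPM with vehicle, 56.5 and 49.0 CPM with TGFβ1, and 8.49, 17.4 and 17.4 CPM with BMP2. Its fold change with TGFβ1 was 3.03 as measured and 0.88 with the offset, which still passed, though not without TGFβ1 replicate 3 (0.75).

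Ppard, the receptor that most tissues express, was at 15.9 and 12.0 CPM with vehicle, 9.86 and 13.4 CPM with TGFβ1, and 13.8, 12.7 and 13.8 CPM with BMP2. These groups overlapped, and the fold changes of -0.26 ± 0.20 with TGFβ1 (-0.44 with the offset) and -0.04 ± 0.18 with BMP2 did not pass. With the offset, BMP2 stood 0.46 above TGFβ1, which passed, and the TGFβ1 value without TGFβ1 replicate 3 was -0.62, which also passed. Ppara, the receptor that leads this pathway in liver, had 3 and 1 counts with vehicle, 3 and 10 with TGFβ1, and 6, 5 and 5 with BMP2, too few for a test. The pooled ratio of vehicle to TGFβ1 CPM was 0.519, with an exact 95% interval of 0.123 to 1.68 that covers counting error only, so no difference was detectable at this depth.

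Ppargc1a encodes PGC-1α, a coactivator of the PPARs known for raising mitochondrial genes. It had 2 and 12 counts with vehicle, 1 and 0 with TGFβ1, and 3, 8 and 22 with BMP2. The TGFβ1 counts were the lowest, but the other groups spread widely within themselves. Pooled over libraries, vehicle was 23.6-fold above TGFβ1 (exact 95% interval 3.59 to 998, counting error only) and BMP2 29.5-fold above TGFβ1 (4.94 to 1201). The test called the fall with TGFβ1 (adjusted p = 0.0387), and this call was lost with the offset and when TGFβ1 replicate 1, TGFβ1 replicate 3, vehicle replicate 2 or BMP2 replicate 2 was left out.

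Promoter sequences of the members were searched for the element that PPAR with its partner receptor is known to bind. The element was spelled as AGGTCA repeated in the same direction 1 base apart, read on both strands, with up to 2 mismatches in the 12 fixed bases, in windows of 250 bases before to 50 bases after each start. RefSeq (GRCm38.p6) promoters were matched for 29 of the 33 members, with 33 windows; Cpt1b, Acaa2, Acat1 and Decr1 had none. The element was found for 3 of the 29 members (10.3%), beside 1190 of the 27025 genes of the whole table (4.4%), and in 3 of the 33 windows (9.09%), beside 1268 of all 32851 (3.86%). The related element TCAAGGTCA, known from estrogen-related receptors, was in 139 of 32851 promoters (0.423%), and these letters are not in the 33 windows. The matching stretches are shown so that their letters can be set beside the element; capitals mark bases equal to the element and small letters the spacer, mismatches and flanks. They come from Slc25a20 (chr9:108662134-108662162, plus strand), from Acox2 (chr14:8258810-8258838, minus strand) and from Etfa (chr9:55512300-55512328, minus strand), where the element reads on the strand opposite to the gene.
Slc25a20: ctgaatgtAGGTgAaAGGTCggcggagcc
Acox2: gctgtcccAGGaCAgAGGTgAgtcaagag
Etfa: gcacacccTtACCTtTGcCCTactcccaa
The match began 6 bases after the start of Slc25a20 and 9 bases after a RefSeq start of Acox2. For Etfa it began 77 bases before the start (-77). Another Acox2 window, chr14:8258970-8259269, had at least 3 mismatches and so held no match. The 3 members with a match did not move together. With TGFβ1 the log2 fold change was 0.16 for Slc25a20 (0.01 with the offset), which did not pass, 0.66 for Acox2 and -1.11 for Etfa, and both of the latter passed. A match is a description of the letters and not a measured binding site.

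Among the activating enzymes, which join fatty acids to coenzyme A, Acsl1 was lower with TGFβ1, and Acsl3 and Acsl4 were higher with BMP2. Acsl1, the long-chain synthetase known from fat, liver and heart, was at 36.6 and 30.6 CPM with vehicle, 12.4 and 13.8 CPM with TGFβ1, and 33.6, 31.2 and 33 CPM with BMP2. Both TGFβ1 libraries lay below all the others, while the BMP2 and vehicle libraries overlapped. Acsl1 fell with TGFβ1 (log2 fold change -1.36 ± 0.14, adjusted p = 1.89e-05; -1.18 with the offset), and its value with BMP2 was -0.04 ± 0.12.

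Acsl3, a synthetase known from the endoplasmic reticulum and lipid droplets, was at 16.8 and 17.8 CPM with vehicle, 15.7 and 16.0 CPM with TGFβ1, and 34.9, 33.1 and 41.1 CPM with BMP2. All 3 BMP2 libraries were above all others. It rose with BMP2, by 1.07 ± 0.14 on the log2 scale (adjusted p = 0.000713) and its value with TGFβ1 was -0.13 ± 0.15 (0.12 with the offset). Acsl4, which prefers arachidonic acid, was at 16.0 and 15.3 CPM with vehicle, 12.9 and 17.6 CPM with TGFβ1, and 25.3, 24.8 and 25.4 CPM with BMP2. Here too the 3 BMP2 libraries were the highest. The rise with BMP2 was 0.68 ± 0.15 (adjusted p = 0.0161), and it no longer passed without BMP2 replicate 3 (0.68) or without either vehicle library (0.72 and 0.65). With TGFβ1 the Acsl4 value was -0.04 as measured and 0.46 with the offset, where it passed.

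Acsl5, a synthetase of mitochondria and endoplasmic reticulum, was at 29.0 and 22.4 CPM with vehicle, 19.2 and 17.7 CPM with TGFβ1, and 26.6, 31.3 and 29.6 CPM with BMP2. The TGFβ1 libraries were lowest and the other groups overlapped. Its fall with TGFβ1 passed as measured (log2 fold change -0.47 ± 0.16, adjusted p = 0.0255), but not with the offset (-0.23), without TGFβ1 replicate 3 (-0.41) or without vehicle replicate 1 (-0.32). Summed over the 4 enzymes, the level was 98.6 and 86.1 CPM with vehicle, 60.1 and 65.1 CPM with TGFβ1, and 120.4, 120.4 and 129 CPM with BMP2. In direct comparison all 4 were higher with BMP2 than with TGFβ1, beside 28.1% of all tested genes. The log2 differences were 1.32 for Acsl1, 1.20 for Acsl3, 0.73 for Acsl4 and 0.66 for Acsl5. With the offset these differences were 1.15, 0.91, 0.26 and 0.42, and that of Acsl4 did not pass, beside 27.6% of all genes higher. As measured, the median over all tested genes was 0.15 for 3001 to 5000 nt (Acsl1, Acsl3 and Acsl5) and 0.37 above 5000 nt (Acsl4). The ratio of Acsl3 to Acsl1 counts was 0.460 and 0.582 with vehicle, 1.27 and 1.16 with TGFβ1, and 1.04, 1.06 and 1.25 with BMP2. It was thus higher with either ligand than with vehicle, with TGFβ1 through less Acsl1 and with BMP2 through more Acsl3.

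Of the carnitine shuttle, Cpt1a, which makes acylcarnitine at the outer mitochondrial membrane and is the known control point of the pathway, was at 7.76 and 7.30 CPM with vehicle, 5.44 and 6.18 CPM with TGFβ1, and 2.66, 5.30 and 3.67 CPM with BMP2. The vehicle libraries were the highest and the BMP2 libraries the lowest, with no overlap between groups, but the BMP2 libraries differed about 2-fold among themselves. Cpt1a fell with BMP2 (log2 fold change -1.0 ± 0.27, adjusted p = 0.0357), its value with TGFβ1 was -0.37 ± 0.27 (adjusted p = 0.262; -0.23 with the offset), and BMP2 against TGFβ1 gave -0.63 ± 0.26 (adjusted p = 0.055). That direct difference passed with the offset (-0.70) and without BMP2 replicate 2 (-0.88). The BMP2 call was lost without BMP2 replicate 1 (-0.77), without BMP2 replicate 3 (-0.98) and without either vehicle library (-0.95 and -1.04). It was also lost with DESeq2 in place of edgeR (-0.96) and with the replicate number in the model (-0.99). Cpt1b, the muscle form of the enzyme, had 0 counts in all 7 libraries. A count of 0 allows a level of up to 0.221 to 0.401 CPM per library (3 counts), and 81.4% of the exon bases of Cpt1b also belong to the gene model Gm44502 on the same strand, so its level is uncertain.

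Cpt2, which returns the chain to coenzyme A on the inner membrane, was at 24.5 and 21.2 CPM with vehicle, 16.6 and 16.5 CPM with TGFβ1, and 22, 24.9 and 26.2 CPM with BMP2. The TGFβ1 libraries were the lowest and close to each other. Cpt2 fell with TGFβ1 (log2 fold change -0.46 ± 0.15, adjusted p = 0.0195; -0.58 with the offset), a call lost without either TGFβ1 library (-0.46 both times) or without vehicle replicate 1 (-0.40). Against BMP2 it was lower with TGFβ1 by 0.56 ± 0.13 (adjusted p = 0.00368). Slc25a20, the carnitine-acylcarnitine carrier of the inner membrane, ranged from 11.8 to 15.7 CPM over all 7 libraries and passed in no comparison. Its log2 fold changes were 0.16 with TGFβ1, -0.06 with BMP2 and -0.22 for BMP2 against TGFβ1.

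The acyl-CoA dehydrogenases carry out the first oxidation, each on its own range of chain lengths, and of the 4 the medium-chain enzyme moved most. Acadm lies at chr3:153922357-153944632 on the minus strand. It was at 16.4 and 18.8 CPM with vehicle, 47.5 and 40.5 CPM with TGFβ1, and 7.98, 9.41 and 9.22 CPM with BMP2. The 3 groups did not overlap, with TGFβ1 above and BMP2 below vehicle. Acadm rose with TGFβ1 (log2 fold change 1.32 ± 0.15, adjusted p = 3.28e-05) and fell with BMP2 (-1.0 ± 0.15, adjusted p = 0.002), and the direct difference between the ligands was -2.32 ± 0.14 (adjusted p = 1.56e-07). With the offset these were 1.30, -1.03 and -2.33, and all 3 calls held in each alternative run.

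Acadl, the long-chain dehydrogenase, was at 27.1 and 30.1 CPM with vehicle, 21.5 and 22.4 CPM with TGFβ1, and 23.6, 23.3 and 21.5 CPM with BMP2. Both ligands lay below vehicle and overlapped each other. The fall with TGFβ1 was small (log2 fold change -0.38 ± 0.13, adjusted p = 0.0261; -0.41 with the offset) and was lost without either TGFβ1 library (-0.35 and -0.41) or without vehicle replicate 2 (-0.31); with BMP2 the value was -0.33 ± 0.12 (adjusted p = 0.107). Acadvl, the very-long-chain enzyme, ranged from 16.2 to 27.1 CPM and had a value of 0.42 with TGFβ1 (0.27 with the offset) that did not pass. BMP2 against TGFβ1 (-0.37) passed only when BMP2 replicate 1 was left out (-0.63). For Acadvl, 42.9% of its exon bases overlap Dvl2, which reads from the opposite strand, and whether counting used strand was not given in the sources used here. Acads, the short-chain enzyme, ranged from 4.05 to 7.22 CPM, with log2 fold changes of -0.27 with TGFβ1 (-0.65 with the offset) and 0.00 with BMP2 that did not pass. BMP2 against TGFβ1 gave 0.27, and 0.71 with the offset, where it passed.

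The mitochondrial trifunctional protein, which completes the round for long chains, is built from an α subunit encoded by Hadha and a β subunit encoded by Hadhb. The genes lie head to head on mm10, Hadha at chr5:30118304-30155162 on the minus strand and Hadhb at chr5:30155248-30184593 on the plus strand. Between their annotated 5′ ends lie 85 bases, at chr5:30155163-30155247. The RefSeq starts, used for the promoter windows, lie 273 bases apart. The 85 bases are shown because they separate the 5′ ends of a gene pair whose TGFβ1 values had opposite signs, though Hadhb did not pass. They are 69.4% G or C, against a median of 52.7% over the 32851 RefSeq promoter windows, and hold 9 CG pairs, which the capitals mark.
Hadha-Hadhb interval, plus strand: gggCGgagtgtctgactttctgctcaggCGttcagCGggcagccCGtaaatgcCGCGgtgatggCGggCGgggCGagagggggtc
Hadha was at 49.2 and 50.7 CPM with vehicle, 130.3 and 116 CPM with TGFβ1, and 50.4, 51.0 and 54.6 CPM with BMP2. Both TGFβ1 libraries were more than 2-fold above all the others. Hadha rose with TGFβ1 by 1.30 ± 0.12 on the log2 scale (adjusted p = 7.78e-06), or 1.40 with the offset, and its BMP2 value was 0.06 ± 0.11.

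Hadhb was at 11.1 and 11.1 CPM with vehicle, 8.31 and 9.39 CPM with TGFβ1, and 11.9, 13.9 and 11.2 CPM with BMP2. Its TGFβ1 libraries were thus the lowest while those of Hadha were the highest. The Hadhb value of -0.33 ± 0.17 with TGFβ1 did not pass (adjusted p = 0.128; -0.31 with the offset), whereas BMP2 stood 0.47 ± 0.15 above TGFβ1 (adjusted p = 0.0204), a call lost without BMP2 replicate 2 (0.39) or TGFβ1 replicate 1 (0.38). The count ratio of Hadha to Hadhb was 4.43 and 4.56 with vehicle, 15.7 and 12.3 with TGFβ1, and 4.22, 3.67 and 4.87 with BMP2. The pseudogenes Gm13910 and Gm9108 match 69.7% and 69.6% of the Hadhb transcript at 95% identity or more, so the level of Hadhb is uncertain; Gm13910 itself had 8 counts over the 7 libraries.

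Hadh, the enzyme of the second oxidation for shorter chains, was at 50.7 and 47.5 CPM with vehicle, 23.5 and 21.1 CPM with TGFβ1, and 43.2, 46.3 and 37.9 CPM with BMP2. The TGFβ1 libraries were far below the other groups, which also did not overlap. Hadh fell with TGFβ1 (log2 fold change -1.14 ± 0.14, adjusted p = 5.16e-05; -1.31 with the offset), and its BMP2 value was -0.21 ± 0.12. Acaa2, the mitochondrial thiolase that cuts off acetyl-CoA, was at 9.23 and 9.57 CPM with vehicle, 5.59 and 7.10 CPM with TGFβ1, and 7.21, 6.23 and 6.02 CPM with BMP2. Vehicle was highest and the ligands overlapped. The fall with TGFβ1 was -0.57 ± 0.20 (adjusted p = 0.031; -0.95 with the offset), lost without TGFβ1 replicate 1 (-0.40) or either vehicle library (-0.64 and -0.54), and the BMP2 value of -0.53 ± 0.18 did not pass (adjusted p = 0.0972). Acat1, the thiolase of the last cut and of ketone bodies, ranged from 48.1 to 80.1 CPM and passed in no comparison, with -0.15 with TGFβ1 (0.05 with the offset).

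The auxiliary enzymes deal with double bonds in unsaturated chains. Eci1, the main mitochondrial enoyl-CoA isomerase, was at 28.2 and 27.8 CPM with vehicle, 74.3 and 38.7 CPM with TGFβ1, and 15.6, 20.8 and 20.6 CPM with BMP2. The groups did not overlap, but TGFβ1 replicate 1 stood almost 2-fold above replicate 3. The log2 fold change of 1.01 ± 0.26 with TGFβ1 passed (adjusted p = 0.00723); without TGFβ1 replicate 1 it was 0.47 and did not pass, and with the offset it was -0.28. Ech1, a dienoyl-CoA isomerase, was at 28.7 and 37.1 CPM with vehicle, 79.1 and 46.9 CPM with TGFβ1, and 32.2, 21.2 and 25.2 CPM with BMP2. Its TGFβ1 libraries were the highest, replicate 1 again above replicate 3, while the other groups overlapped. Its log2 fold change of 0.93 ± 0.25 (adjusted p = 0.00941) became 0.09 with the offset, 0.51 without TGFβ1 replicate 1 and 0.72 without vehicle replicate 1, none of which passed. The principal transcripts of Eci1 and Ech1 are 1137 and 1267 nt long, in a length class whose median over all genes was 0.86.

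Eci2, the peroxisomal and mitochondrial isomerase, was the steadiest of the group, from 29.0 to 33.3 CPM over the 7 libraries, and its value with TGFβ1 was -0.06 as measured and -0.30 with the offset, where it passed, as did BMP2 against TGFβ1 (0.06, and 0.32 with the offset). Decr1 and Decr2, the mitochondrial and peroxisomal dienoyl-CoA reductases, ranged from 17.8 to 35.3 CPM and from 11.4 to 16.9 CPM. Their log2 fold changes were -0.02 and -0.38 with TGFβ1 (0.10 and -0.35 with the offset) and -0.44 and -0.32 with BMP2, and these did not pass. Decr2 with TGFβ1 passed without BMP2 replicate 1 (-0.38), and Decr1 with BMP2 passed without vehicle replicate 1 (-0.83). BMP2 against TGFβ1 passed for Decr1 with the offset (-0.60, and -0.42 as measured). The vehicle libraries of Decr1, at 18.3 and 35.3 CPM, were further apart than the libraries of either ligand.

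Electron transfer flavoprotein takes electrons from all the dehydrogenases above and is a pair of subunits, α from Etfa and β from Etfb, which moved in opposite directions. Etfa was at 105 and 101 CPM with vehicle, 52.1 and 43.2 CPM with TGFβ1, and 119, 146 and 139 CPM with BMP2. The 3 groups did not overlap. Etfa fell with TGFβ1 (log2 fold change -1.11 ± 0.15, adjusted p = 9.83e-05; -1.44 with the offset) and differed from vehicle by 0.39 ± 0.13 with BMP2 (adjusted p = 0.0864), a value that passed without BMP2 replicate 1 (0.47). Its principal transcript has 1392 nt, so it fell in a length class whose median was 0.86.

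Etfb was at 13.4 and 19.7 CPM with vehicle, 172 and 127 CPM with TGFβ1, and 12.7, 11.3 and 12.6 CPM with BMP2. Both TGFβ1 libraries were more than 6-fold above the highest of the others. Its fold change was 3.17 ± 0.20 on the log2 scale (adjusted p = 4.63e-07); its transcript has 893 nt, the median of genes of up to 1000 nt was 2.74, and with the offset the value was 0.56 ± 0.15 (adjusted p = 0.00905). In addition, 58.2% of the exon bases of Etfb are shared with the gene model Gm45233 on the same strand, which had 0 counts, so the level of Etfb is uncertain. The count ratio of Etfb to Etfa was 0.128 and 0.196 with vehicle, 3.30 and 2.93 with TGFβ1, and 0.107, 0.0773 and 0.0905 with BMP2. These ratios are as measured, and the length classes of Etfb and Etfa had medians of 2.74 and 0.86, so the ratios carry the length trend. With the offset the log2 fold changes with TGFβ1 were 0.56 for Etfb and -1.44 for Etfa, a smaller gap than as measured. Etfdh, the dehydrogenase that passes the electrons on to ubiquinone, ranged from 20.8 to 26.6 CPM and passed in no comparison, with 0.28 with TGFβ1 (0.34 with the offset).

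**Figure D4:**
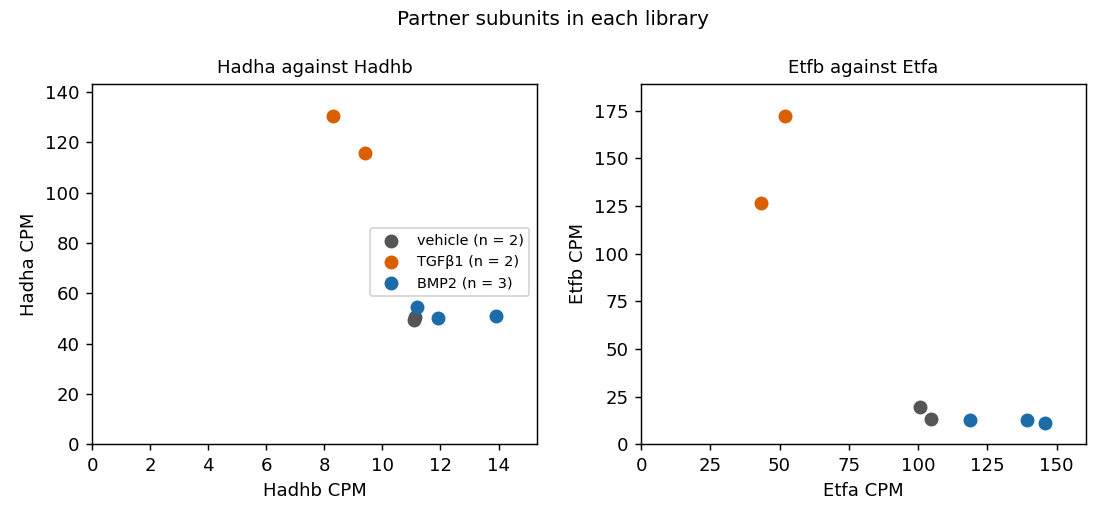
CPM of Hadha against Hadhb and of Etfb against Etfa (linear axes from 0), 1 point per library coloured by group. The 2 TGFβ1 libraries lie at the upper left of both panels, apart from the vehicle and BMP2 libraries, with Hadha at 116 and 130.3 CPM and Etfb at 127 and 172 CPM. Levels are as measured, without the length offset.

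Peroxisomal oxidation begins with acyl-CoA oxidases, which pass electrons to oxygen. Acox2, the oxidase of branched chains and bile acid intermediates, lies at chr14:8225511-8259353 on the minus strand and was at 14.8 and 19.3 CPM with vehicle, 26.3 and 27.6 CPM with TGFβ1, and 6.52, 5.83 and 7.05 CPM with BMP2. As with Acadm, the groups did not overlap, with TGFβ1 above and BMP2 below vehicle. Acox2 rose with TGFβ1 (log2 fold change 0.66 ± 0.16, adjusted p = 0.00498; 0.58 with the offset) and fell with BMP2 (-1.39 ± 0.16, adjusted p = 0.0004), and the direct difference was -2.05 ± 0.15 (adjusted p = 9.52e-07). Without vehicle replicate 1 the TGFβ1 value was 0.44 and did not pass, whereas the BMP2 call and the direct one held in each alternative run.

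Acox3, another branched-chain oxidase, was at 8.02 and 4.90 CPM with vehicle, 17.5 and 15.7 CPM with TGFβ1, and 5.58, 5.17 and 5.08 CPM with BMP2. The TGFβ1 libraries were about 2-fold or more above all the others, while BMP2 lay within the vehicle range. Acox3 rose by 1.37 ± 0.22 with TGFβ1 (adjusted p = 0.000355; 1.42 with the offset), and its BMP2 value was -0.28 ± 0.22. Ehhadh, the peroxisomal bifunctional enzyme and a known PPARα target, had little RNA, from 0.916 to 2.01 CPM, and passed in no comparison, with -0.75 with TGFβ1 (-0.66 with the offset). Acaa1a, the peroxisomal thiolase, ranged from 29.5 to 43.6 CPM, with -0.35 ± 0.16 with TGFβ1 (adjusted p = 0.079) and -0.77 with the offset, where it passed, as it did without BMP2 replicate 1 (-0.35). BMP2 against TGFβ1 was 0.30, and passed with the offset (0.78). For Acaa1a, 80.4% of the transcript is matched by Acaa1b at 95% identity or more, and Acaa1b had 38 counts over the 7 libraries.

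Levels of different members were compared per length, as CPM per kilobase of the gene length deposited by the authors, in the vehicle libraries. Etfa was the highest at 56.0 ± 1.63 (SD, n = 2), followed by Eci1 at 25.6 ± 0.301 and Acat1 at 19.7 ± 2.31. Ech1 (14.4 ± 2.58), Acadl (14.3 ± 1.06) and Etfb (14.2 ± 3.87) came next and did not differ beyond their spread. The receptors stood lower, Pparg at 4.20 ± 0.365 and Ppard at 3.01 ± 0.603 CPM per kilobase. Ppara (0.0679 ± 0.0519) and Ppargc1a (0.129 ± 0.125) were near the bottom, above Cpt1b at 0. The order depends on the length used: per kilobase of the principal transcript Etfa was still first at 73.8, but Hadh moved from place 7 to place 2 (27.4) and Hadhb from place 28 to place 23.

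Summed over the 33 members, the level was 761 to 777 CPM with vehicle, 852 to 999.98 CPM with TGFβ1 and 742 to 775 CPM with BMP2. The sums here are as measured and carry the length trend, and the short members Etfb, Eci1 and Ech1 add to them with TGFβ1. With the offset the log2 fold changes of Eci1 and Ech1 with TGFβ1 were -0.28 and 0.09. The sums therefore do not show a rise apart from that trend. In some steps 1 gene held much of the difference between TGFβ1 and vehicle. The dehydrogenases reached 99.6 and 96.1 CPM with TGFβ1 against 67.1 and 77.6 CPM with vehicle, of which Acadm held 47.5 and 40.5 CPM with TGFβ1. The electron transfer genes reached 251 and 195 CPM against 140.0 and 141 CPM, of which Etfb held 172 and 127 CPM. The PPAR genes and the activating enzymes were lower with TGFβ1, the former at 12.7 and 16.95 CPM against 28.2 and 26.7 CPM with vehicle.

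The wider pathway was read from 79 other genes in 5 lists, of which 69 were tested. With TGFβ1 against vehicle 14 rose and 31 fell (11 and 26 with the offset, 34 with the same call), which is 65.2% of them beside 56.2% of all tested genes (30.4% risen and 25.8% fallen), with a median log2 fold change of -0.42; without vehicle replicate 1, 8 rose. With BMP2 against vehicle 2 rose and 11 fell (18.8%), beside 5.33% and 6.15% of all tested genes, with a median of -0.06. These were 1 and 7 without BMP2 replicate 2, 1 and 6 without BMP2 replicate 3, 1 and 4 without vehicle replicate 2, and 5 fallen without vehicle replicate 1. With BMP2 against TGFβ1 28 were higher and 21 lower (71%), beside 28.1% and 33.3% of all tested genes. The genes named in the next paragraphs are a part of those with the smallest p in each list, and the shares of all tested genes just given are the ones to read each list's counts against.

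Of 18 tested PPAR targets and genes of fatty acid uptake and storage, 5 rose and 6 fell with TGFβ1 (61.1%, beside 56.2% of all tested genes), or 4 and 5 with the offset. Lpl, the lipase that frees fatty acids from lipoproteins and a known PPAR target, was at 44.1 and 40.8 CPM with vehicle, 3.16 and 2.83 CPM with TGFβ1, and 22.7, 29.8 and 26.1 CPM with BMP2. Its fold changes were -3.82 ± 0.18 with TGFβ1 (adjusted p = 4.8e-08; -3.56 with the offset) and -0.70 ± 0.13 with BMP2 (adjusted p = 0.0076), the latter lost without either vehicle library (-0.64 and -0.76). Angptl4, a secreted inhibitor of that lipase, was at 20.1 and 21.4 CPM with vehicle, 8.83 and 8.70 CPM with TGFβ1, and 3.86, 4.64 and 4.14 CPM with BMP2, so it fell with both (log2 fold change -1.24 with TGFβ1, or -1.18 with the offset, and -2.31 with BMP2). Acot2, a mitochondrial acyl-CoA thioesterase, also fell with TGFβ1 (-1.21, and -1.35 with the offset), but 57.0% of its transcript is matched by Acot1.

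The fatty acid binding proteins rose with TGFβ1: Fabp5 from 6.55 and 8.97 CPM to 169 and 141 CPM (log2 fold change 4.31, 2.55 with the offset), and Fabp3 from 0.936 and 2.39 CPM to 16.1 and 14.3 CPM (3.15). The call of Fabp3 was lost with the offset (0.39), and the pseudogene Fabp3-ps1 matches 48.8% of the Fabp3 transcript. Fabp5 also rose with BMP2, to 12.3, 19.2 and 17.2 CPM (1.04), a call lost without vehicle replicate 1 (0.85), and pseudogenes match up to 41.3% of its transcript. Cd36, the fatty acid transporter, was at 2.01 and 2.87 CPM with vehicle and at 2.49, 3.45 and 2.73 CPM with BMP2. With TGFβ1 it had 1 and 0 counts, or 0.0736 and 0 CPM. With BMP2 5 of the 18 fell and 1 rose (33.3%, beside 11.5% of all tested genes), or 6 and 2 with the offset (beside 13.3% of all genes). Mgll, a lipase of monoglycerides, was among those that fell with BMP2 (-0.99).

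Of 12 other mitochondrial genes tested, 4 rose and 4 fell with TGFβ1 (66.7%, beside 56.2% of all tested genes), or 4 and 3 with the offset. Hsd17b10, an enzyme of the second oxidation for branched chains, went from 36.5 and 51.1 CPM with vehicle to 348 and 175 CPM (2.58), but to 0.43 with the offset, and to 0.24 with the offset and without TGFβ1 replicate 1, where it no longer passed. Nudt7, a peroxisomal hydrolase of coenzyme A that was placed in this list, rose by 1.29 and by 1.53 with the offset. Acad9, a dehydrogenase that also assembles complex I, fell (-0.59, and -0.39 with the offset), but with the offset it did not pass without TGFβ1 replicate 1 (-0.45) or TGFβ1 replicate 3 (-0.32).

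Peroxisomal genes showed 3 rises and 8 falls among 16 tested with TGFβ1 (68.8%, beside 56.2% of all tested genes), or 2 and 6 with the offset. Scp2, the thiolase and sterol carrier that follows Acox2 in branched-chain oxidation, was at 23.4 and 25.8 CPM with vehicle, 112 and 76.8 CPM with TGFβ1, and 24.1, 19.9 and 17.5 CPM with BMP2. Its rise was 1.94 ± 0.20, and 2.05 with the offset. Scp2-ps2 and Gm47162 match 52.7% and 34.1% of the Scp2 transcript at 95% identity or more, so the level of Scp2 is uncertain. Pex11a, a factor of peroxisome division, rose as well (1.55, and 1.58 with the offset). Phyh, which starts the α-oxidation of phytanic acid, was lower with both ligands: 85.2 and 81.5 CPM with vehicle, 46.0 and 41.0 CPM with TGFβ1 (-0.94, and -1.21 with the offset) and 40.4, 46.4 and 44.3 CPM with BMP2 (-0.93). Abcd3, a peroxisomal fatty acid transporter, fell with TGFβ1 (-0.86, and -0.63 with the offset).

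Among 19 tested partners of the PPARs and fuel sensors, 2 rose and 10 fell with TGFβ1 (63.2%, beside 56.2% of all tested genes), or 1 and 9 with the offset. Prkaa2, a catalytic subunit of the energy sensor AMPK, was at 19.1 and 17 CPM with vehicle, 3.16 and 2.90 CPM with TGFβ1 (-2.57, and -1.94 with the offset), and 10.7, 9.28 and 9.03 CPM with BMP2 (-0.89). The coactivators Ncoa2 and Ncoa1 fell with TGFβ1 (log2 fold change -1.42 and -0.90; -1.31 and -0.44 with the offset, the latter not passing without TGFβ1 replicate 1 at -0.41). Rxrb, a partner receptor, and Sirt3, a mitochondrial deacetylase, rose by 0.44 and 1.14, calls lost with the offset (0.25 and 0.63). That of Sirt3 was also lost without TGFβ1 replicate 1 (0.79) or vehicle replicate 1 (1.03), and that of Rxrb without any 1 of 5 libraries (0.25 to 0.45). Of the 4 ketone body genes, Oxct1, Slc16a1 and Bdh1 fell with TGFβ1 (-1.21, -0.92 and -0.74; -1.02, -0.60 and -0.81 with the offset), Bdh1 not without TGFβ1 replicate 1 (-0.65) or vehicle replicate 1 (-0.56), and all 3 were higher with BMP2 than with TGFβ1 (1.12, 1.30 and 0.82).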

How the data were processed

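RNA counts per gene name were deposited by the authors for 7 libraries, with a gene length used here for levels per kilobase. The mm10 build and, without roles, featureCounts, Subread, STAR 2.4.2a, cutadapt and DESeq2 are named per the submitters' processing notes; strand setting and annotation were not given in the sources used here. Deposited counts were whole and their totals differed between libraries. The members and lists were chosen with earlier results of these data known. Values were computed with edgeR 4.0.16 (R 4.3.3): filterByExpr, TMM scaling and 1 quasi-likelihood fit over all 7 libraries, 2-sided, with Benjamini-Hochberg adjustment over 13367 genes and a threshold of 0.05, with 4 residual degrees of freedom and a common coefficient of variation of 0.133. With 2 or 3 libraries a group, small changes may be missed. SE is |log2 fold change| over the square root of F.

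The length offset was made from lowess trends of log2 CPM on transcript length (span 0.15) and GC content (span 0.3), in 3 passes, for the 13228 genes with both; gene names were matched to the mm10 annotation for 45707 names as given, 2401 with another separator and 194 by synonym. Near-identical copies are matches of at least 100 bases at 95% identity. The fit was tested on simulated data with known changes, in 100 genes at a log2 fold change of 2 in size and 100 genes at 1. With a length trend added to the simulated TGFβ1 libraries and no offset, 97.4% of the calls were false. With the same trend and the offset 6.47% were false, and with no trend and no offset 3.05%. The added trend was a straight line on log2 transcript length, without a trend on GC content. The measured trend and the number of changed genes can differ from this, so these shares are not error rates for the data described here. TGFβ1 calls as measured can therefore follow the length trend alone.

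Members were given per library where they passed against vehicle or belong to the PPAR genes; of each other list, up to 3 genes with the smallest p per direction and comparison qualified, and a part of these is named; 1 of them is not reported here. Cd36 and Fabp4 were named with their values in view. Alternatives were DESeq2 1.42.0, its size factors, no filter, only the libraries compared, a replicate block, the offset, the offset with a TGFβ1 library left out, and each library left out in turn.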

Additional observations from a re-analysis of the deposited data

How the results depend on the processing

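For TGFβ1 against vehicle 8 of the 16 member calls held in all 15 alternatives (Acadm, Acox3, Acsl1, Etfa, Etfb, Hadh, Hadha and Pparg), for BMP2 against vehicle 3 of 5 in 13 (Acadm, Acox2 and Acsl3), and for BMP2 against TGFβ1 11 of 17 in 15. Members fallen with TGFβ1 went from 9 to 5 with DESeq2. The TGFβ1 calls of Acsl5, Cpt2, Acadl and Acaa2 were lost both with DESeq2 and with the replicate block. So were the BMP2 call of Cpt1a and the call of Hadhb for BMP2 against TGFβ1. The BMP2 call of Acsl4 was lost with the replicate block. Other pathway genes with TGFβ1 went from 14 risen to 9 and from 31 fallen to 15 with the offset and without TGFβ1 replicate 1. With BMP2 against vehicle, other pathway genes risen went from 2 to 5 with only the libraries compared and to 4 with the offset, and those fallen from 11 to 7 with DESeq2. With BMP2 against TGFβ1, other pathway genes fallen went from 21 to 13 with the offset and without TGFβ1 replicate 3. Shares of all tested genes are at hand only for the main fit and for the offset over all libraries. For the other alternatives, here and in the passages above and below, the counts therefore do not tell a change of these genes from a change in calls over all genes. The cause of these moves was not tested.

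Leaving out 1 library at a time gave 5 to 7 members risen and 5 to 11 fallen with TGFβ1, the 5 fallen without either TGFβ1 library, and 8 to 16 other pathway genes risen and 23 to 33 fallen, the 8 without vehicle replicate 1. With BMP2 against vehicle it gave 1 to 3 members risen, 1 without BMP2 replicate 3 or either vehicle library, and 2 to 4 fallen. Other pathway genes were then 0 to 3 risen in edgeR, 0 without vehicle replicate 1 and 1 without BMP2 replicate 2, BMP2 replicate 3 or vehicle replicate 2, and 4 to 11 fallen, with 7, 6, 5 and 4 without BMP2 replicate 2, BMP2 replicate 3, vehicle replicate 1 and vehicle replicate 2. With BMP2 against TGFβ1 it gave 9 to 10 members higher, 7 to 8 lower, and 24 to 30 and 18 to 23 other pathway genes.

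Direction turned with the offset for Acsl4 with TGFβ1 (0.46, and 0.62 with TGFβ1 replicate 1 left out), for Eci1 (-0.28, -0.39 with TGFβ1 replicate 1 left out and -0.0905 with TGFβ1 replicate 3 left out) and, without TGFβ1 replicate 1, for Ech1 (-0.00203). It also turned with the offset for Acsl3 (0.12), Acat1 (0.05) and Decr1 (0.10) with TGFβ1, which did not pass in either fit.

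Between same-numbered libraries the correlations of deviations from the group mean ran from -0.152 to -0.00366. In a group of 2 libraries these deviations mirror each other, so the correlations cannot decide whether the replicate numbers pair libraries. With the number as a block, members fallen with TGFβ1 were 5, and with BMP2 against vehicle 1 member and 1 other pathway gene rose and 6 other pathway genes fell.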
